A study of Mus musculus with 6 samples.

Results

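Malat1, Neat1 and Gm42418 are 3 noncoding transcripts that single-nucleus libraries capture in large amounts, and they are described here in mouse small intestinal organoids. They were chosen by their measured share of UMIs (unique molecular identifiers, 1 per captured RNA molecule) in the deposited clusters and samples, and they are 3 of the 31319 genes in the count matrices. The share of UMIs across clusters and samples, and the share of nuclei with a UMI, are therefore given as a description, without a test. Organoids from the jejunum of C57BL/6 mice aged 8 to 12 weeks were grown in medium conditioned by mouse embryonic fibroblasts (MEFs) that were either quiescent after serum deprivation (quiescent conditioned medium, QCM) or senescent after X-ray irradiation or doxorubicin (senescent conditioned medium, SCM). Single-nucleus RNA-seq was run on frozen organoids from 3 QCM and 3 SCM samples, and the 38154 nuclei carry a deposited cluster number from 0 to 14. The labels do not say which of the 2 ways of inducing senescence served for a given SCM sample, nor whether replicates came from separate mice, so p-values measure the spread between these samples. The fibroblasts supplied medium only, and the organoids hold epithelium without stromal or immune cells.

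Malat1 is a long noncoding RNA that stays in the nucleus, where it gathers at nuclear speckles, bodies rich in splicing factors. Neat1 is the architectural RNA of paraspeckles, nuclear bodies that hold RNA-binding proteins such as NONO and SFPQ, and it is made as a short polyadenylated and a long form from the same start. Gm42418 is annotated as a long noncoding RNA, but its gene model lies in a ribosomal RNA repeat, and its reads are commonly treated as ribosomal RNA in single-cell work. Both Malat1 and ribosomal RNA lack an ordinary poly(A) tail, so that capture by an oligo-dT primer depends on stretches of A within them.

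In GRCm38 coordinates with GENCODE gene models, Malat1 lay on the minus strand of chromosome 19 from 5795690 to 5802672, and Neat1 lay on the same strand from 5824708 to 5845478, 22035 bases away. Gm42418 lay on the plus strand of chromosome 17 from 39846958 to 39848788. It sat wholly inside CT010467.1, an rRNA gene model on the opposite strand, and overlapped the 18S-related pseudogene Rn18s-rs5 of RefSeq by 1245 bases. AY036118, a further noncoding gene model, was the exact reverse complement of bases 156 to 1078 of Gm42418. Runs of 8 or more A were searched on the transcript strand, since they are where an oligo-dT primer can anneal. The longest Malat1 transcript (6983 bases) held 1 such run of 12 A, 298 bases before its annotated end, which need not be the end of the RNA in the nucleus. The longest transcripts of Neat1 (20771 bases) and Gm42418 (1831 bases) held none, and 13.8% of all 141767 annotated transcripts held at least 1. The stretches below show the Malat1 run (capitals; chr19:5795960-5796059, minus strand), the end of the short Neat1 transcript with its polyadenylation signal (capitals; chr19:5842307-5842366, minus strand) and the most A-rich 60 bases of Gm42418 with the first of the runs of 3 A in that window, which holds no longer run (capitals; chr17:39847336-39847395, plus strand).
Malat1: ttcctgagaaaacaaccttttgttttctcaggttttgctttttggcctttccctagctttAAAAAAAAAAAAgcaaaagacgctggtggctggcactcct
Neat1: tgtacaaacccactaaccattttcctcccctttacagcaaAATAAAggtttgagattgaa
Gm42418: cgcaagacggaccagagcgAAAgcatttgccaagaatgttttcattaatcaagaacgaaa
The longest run of A anywhere in the longest transcript was 12 in Malat1, 7 in Neat1 and 6 in Gm42418. The Neat1 signal lies 14 bases before the annotated end of the short form.

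Libraries differed widely in depth. They held 430 (SCM replicate 1) to 10833 (SCM replicate 3) nuclei and 4071926 to 41035733 UMIs each. The median was 8260 UMIs per nucleus in QCM replicate 1 and 1578 to 3156.5 in the other 5 libraries. The median mitochondrial share ranged from 0.803% to 3.71% over both media. Ribosomal protein genes took 9.84% ± 4.65 of UMIs in QCM and 4.72% ± 2.37 in SCM (SD, n = 3), and SCM replicates 1 and 2 lay below every QCM library. Their part in the shares of Malat1 and Neat1 was not tested. QCM replicate 1 and SCM replicate 1 shared 175 barcodes, against 0 to 36 for every other pair. These were 40.7% of the nuclei of SCM replicate 1. The same 2 libraries alone held Xist (4096 and 6606 CPM, against 1.06 to 2.51 in the other 4). The Y-linked genes Zfy1 and Uba1y were at 0 CPM in these 2 libraries. In the other 4 they were at 1.48 to 2.11 and 1.49 to 2.76 CPM. This is the pattern of female nuclei in replicate 1 and male nuclei in replicates 2 and 3, in both media. The labels give no sex. For the shared barcodes and this difference, the main results by medium are also given without barcodes found in more than 1 library and with replicates 2 and 3 alone. Epithelial markers summed to 2409 to 3471 CPM (UMI counts scaled to a common library total), while 9 fibroblast and 7 immune markers summed to at most 6.52 CPM in any library.

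The 3 transcripts took between 4.35% and 8.48% of the UMIs of a library. Gm42418 had the most UMIs of all genes (6024314, or 4.40% of all UMIs) and was seen in all 38154 nuclei. Malat1 ranked 2 with 2409894 UMIs (1.76%), and 97.9% of nuclei had at least 1 Malat1 UMI. Neat1 ranked 102 with 111319 UMIs (0.0813%) and was seen in 63.7% of nuclei. These are counts of captured 3′ ends, which the capture of each RNA sets as well as its level.

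Malat1 took 1.40%, 2.06% and 1.32% of UMIs in QCM replicates 1 to 3 and 2.49%, 2.47% and 1.70% in SCM replicates 1 to 3. SCM replicate 3 lay below QCM replicate 2, so the media overlapped. The means were 1.59% ± 0.403 in QCM and 2.22% ± 0.448 in SCM (SD, n = 3), a ratio of 1.39. Averaged over nuclei, so that deep nuclei count no more than shallow ones, the difference between media was 0.306 percentage points, against 0.628.

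Neat1 took 0.0580%, 0.0838% and 0.0757% of UMIs in QCM and 0.0856%, 0.122% and 0.0865% in SCM. Every SCM sample lay above every QCM sample, as it did for 4.99% of the 19046 genes tested. The narrowest gap, between SCM replicate 1 and QCM replicate 2, was within counting error (95% Wilson intervals of 0.0828% to 0.0885% and 0.0827% to 0.0850%, which cover counting error only). The means were 0.0725% ± 0.0132 in QCM and 0.0981% ± 0.0209 in SCM (SD, n = 3), a ratio of 1.35. Averaged over nuclei, the difference of 0.0255 percentage points became 0.0129. Without SCM replicate 2 it was 0.0135, with an SCM mean of 0.0860%. The media overlapped once the share was averaged over nuclei, once clusters were weighted equally, once the 6% of nuclei with most UMIs in each library were left out, and once nuclei above the median mitochondrial share were left out. The 9 fetal-type markers found in the files also did not overlap between media, at 47.7 to 92.3 CPM in QCM and 153 to 572 CPM in SCM, and their part in the values of Malat1 and Neat1 was not tested.

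Gm42418 took 2.89%, 3.53% and 5.91% of UMIs in QCM and 2.74%, 5.89% and 5.48% in SCM. Low and high samples occurred in both media, and their order was close to that of the median mitochondrial share (1.01%, 1.83% and 3.71% in QCM, 0.803%, 2.21% and 3.54% in SCM). The means of 4.11% ± 1.60 and 4.70% ± 1.71 (SD, n = 3) differed by less than the SD of either medium. Without QCM replicate 1 the difference between media was -0.0163 percentage points, against 0.596 with all samples. Averaged over nuclei it was 1.78 points (4.69% ± 1.74 against 6.47% ± 0.986), and with clusters weighted equally 0.993 points.

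**Figure D1:**
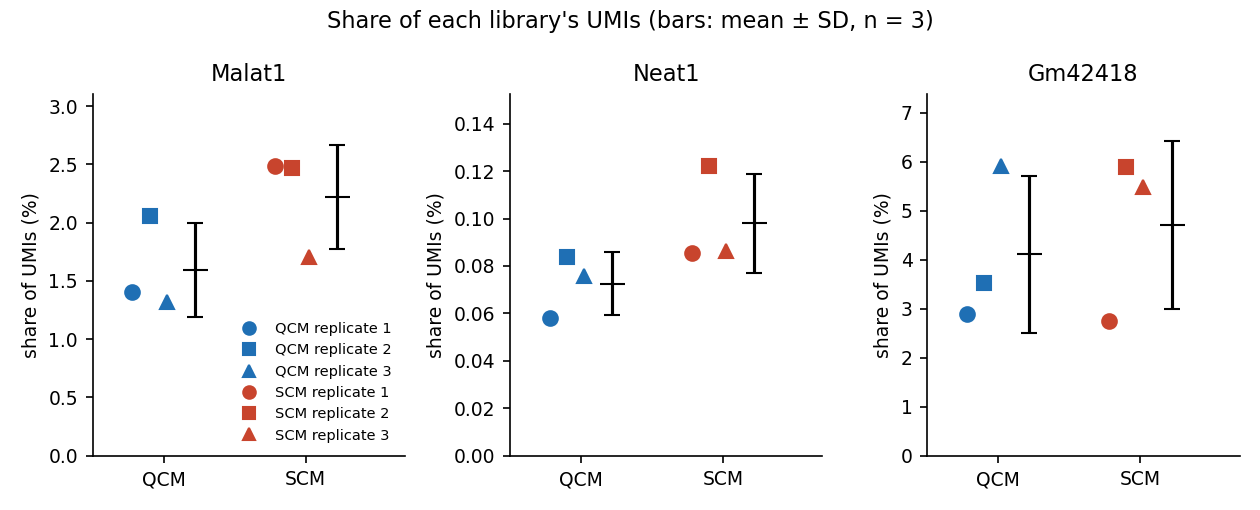
Share of each library's UMIs taken by Malat1, Neat1 and Gm42418 (y axis, percent of UMIs) in QCM and SCM, with a symbol per replicate and the mean ± SD (n = 3) beside the points. Neat1 does not overlap between media (highest QCM 0.0838%, lowest SCM 0.0856%), while Malat1 and Gm42418 do.

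Over all genes, the same comparison was made on counts summed per sample with edgeR's quasi-likelihood test. It called 0 of 19046 genes at an adjusted p under 0.05 (0% called), and 866 genes had an unadjusted p below 0.05. DESeq2, run on all 31319 genes without the low-count filter used for edgeR, called 22. On this log2 scale, SCM against QCM, Malat1 was at 0.32 ± 0.41 (SE; edgeR adjusted p = 0.930), Neat1 at 0.29 ± 0.24 (adjusted p = 0.929) and Gm42418 at 0.06 ± 0.55 (adjusted p = 0.994). The members were chosen on shares of these same counts. Their p-values are given as rows of the test over all genes, and are no independent test of the members. The estimate of Gm42418 changed sign without QCM replicate 1 (-0.05), QCM replicate 2 (-0.09), SCM replicate 2 (-0.11) or SCM replicate 3 (-0.10). The estimates of Malat1 and Neat1 stayed above 0 in all 14 alternatives run, at 0.17 to 0.48 and 0.11 to 0.43. With library sizes as the only scaling, the median over all genes was 0.14 instead of -0.01, and relative to that median the 3 members were at 0.34, 0.30 and 0.06. With replicates 2 and 3 alone, the difference in share between SCM and QCM was 0.401 percentage points for Malat1, 0.0245 for Neat1 and 0.965 for Gm42418. Without barcodes found in more than 1 library these differences were 0.637, 0.0256 and 0.653 points, against 0.628, 0.0255 and 0.596 with all nuclei.

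The share of nuclei with a UMI of a member depends on depth, so each nucleus was thinned to 1000 UMIs and shallower nuclei were left out (2366 in QCM, 813 in SCM). Malat1 was then seen in 89.1%, 99.7% and 96.6% of nuclei in QCM replicates 1 to 3 and in 96.6%, 99.8% and 99.1% in SCM. QCM replicate 1 was the lowest and also the deepest library. Neat1 was seen in 28.8%, 45.3% and 41.3% of thinned nuclei in QCM and in 37.7%, 48.6% and 43.7% in SCM. The media overlapped for both. The differences of 3.35 and 4.86 percentage points were 4.04 and 5.49 without barcodes found in more than 1 library, and 1.29 and 2.87 with replicates 2 and 3 alone. Without QCM replicate 1 alone they were 0.344 and 0.0356. Unthinned, the mean over samples was higher in QCM for both (97.8% against 97.1% for Malat1, 67.3% against 64.6% for Neat1). Gm42418 was seen in every thinned nucleus of every library.

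The share of Malat1 ranged from 1.09% to 4.58% over the means of the 15 clusters. Cluster 7, called fetal-like since 5 fetal-type markers such as Clu, Anxa1 and Ly6a were higher there than in other nuclei, was highest at 4.58% ± 2.34 (mean and SD over 6 samples). Cluster 8, enterocyte-like by 8 absorptive markers, followed at 3.11% ± 0.897. Clusters 7 and 8 were among the 3 highest in all 6 samples, and their order did not hold beyond the spread (cluster 7 higher in 4 of 6 samples). Enteroendocrine-like cluster 9 came next at 2.38% ± 0.530 over 5 samples. The lowest levels were 1.29% ± 0.398 in cluster 4, 1.17% ± 0.314 in cluster 13 (over 4 samples) and 1.09% ± 0.423 in cluster 1. Clusters 4 and 1 were among the 3 lowest in all 6 samples. Cluster 1 carried enterocyte and Paneth markers together (6 and 4). It passed the marker rule for enterocytes, but is given by number only since its markers are mixed. A high Malat1 share was thus not common to both clusters that passed this rule for enterocytes. The remaining clusters ran from 1.55% to 2.33%, and among neighbours in the order only 8 against 9 differed with the same sign in every sample and by more than the SD of the difference.

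Neat1 was highest in enterocyte-like cluster 8 (0.185% ± 0.0424), fetal-like cluster 7 (0.184% ± 0.0567) and goblet-like cluster 6 (0.153% ± 0.0336), which were the 3 highest clusters in each of the 6 samples. Cluster 6 passed the marker rule for goblet cells with 8 markers and also had 4 Paneth markers. Its leading genes held 1 goblet and 0 Paneth markers, and its name rests on these counts. Cluster 8 did not differ from cluster 7 (higher in 2 of 6 samples), nor cluster 7 from cluster 6, beyond their spread. Cluster 6 lay above cluster 9 (0.112% ± 0.0219) in 5 of 5 samples, by 0.0444 ± 0.0150 percentage points. Enteroendocrine-like cluster 10 (0.0955% ± 0.0221) lay above cluster 12 (0.0689% ± 0.0246) in 5 of 5 samples, and tuft-like cluster 11 followed at 0.0676% ± 0.0277. The large clusters 0 and 2, with 11711 and 4679 nuclei and no marker set, were at 0.0627% ± 0.0111 and 0.0649% ± 0.00614. Cluster 1 was lowest at 0.0494% ± 0.0152, below cluster 4 in 6 of 6 samples.

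Gm42418 was ordered otherwise. Cluster 1 was highest in all 6 samples at 7.16% ± 2.53, followed by cluster 4 at 5.99% ± 2.11 and cluster 3, led by histone genes, at 5.59% ± 2.31. Cluster 2 (3.33% ± 1.31) and cluster 14 (2.01% ± 0.136 over 3 samples) were lowest. Depth and mitochondrial share moved with this order. Clusters 1 and 4 had median mitochondrial shares of 4.07% and 3.92% and 1821 and 1571.5 UMIs per nucleus, while cluster 14 had 0.626% and 39432.5 UMIs. Enterocyte-like cluster 8, with the highest mean for Neat1, was at 4.31% ± 1.60 for Gm42418. Among neighbours only 1 against 4 differed with the same sign in every sample and by more than the SD of the difference.

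**Figure D2:**
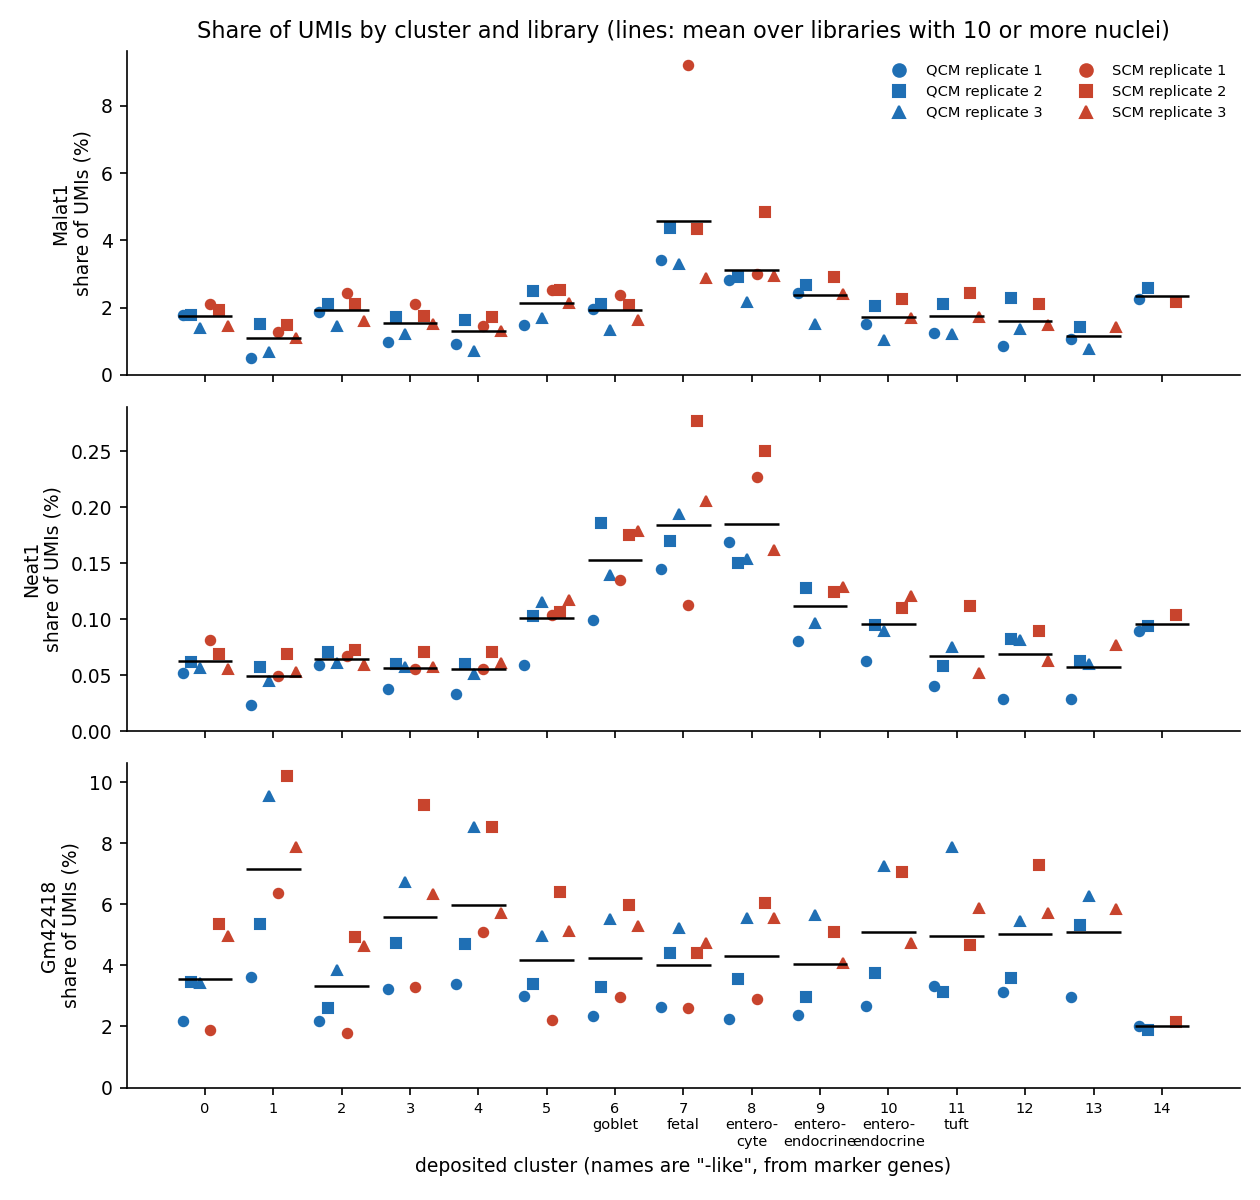
Share of UMIs (y axis, percent) of Malat1, Neat1 and Gm42418 in each deposited cluster (x axis), with a point per library that had at least 10 nuclei in the cluster and a line at their mean. Malat1 and Neat1 peak in clusters 7 and 8 and are lowest in cluster 1, where Gm42418 is highest (7.16%).

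Among nuclei at or under the median mitochondrial share of the series (2.63%), the mean ratio within samples was 4.43 for Malat1 (cluster 7 over 1), 4.18 for Neat1 (8 over 1) and 1.93 for Gm42418 (1 over 2), against 4.59, 4.10 and 2.25 in all nuclei. This cutoff left the shares of QCM replicate 1 unchanged (Malat1 1.40%). In SCM replicate 1 Malat1 went only from 2.49% to 2.50%. The ratios therefore do not compare clusters at a matched mitochondrial share. As the mean of the share per nucleus, the Malat1 ratio was 2.74, and cluster 7 (2.19% ± 0.838, SD, n = 6) then ranked 3 of 15, behind clusters 8 (2.69%) and 14 (2.29%). These pairs are the highest and lowest, in all nuclei, of the clusters with 6 samples. At low mitochondrial share cluster 7 was above cluster 8 for Neat1 (0.206% against 0.198%), and cluster 14, with 3 samples, was lowest for Gm42418 (2.02%).

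The high Malat1 level of cluster 7 came from a minority of its nuclei. When the 6% of nuclei with most UMIs in each library were left out, Malat1 in cluster 7 fell to 1.65% ± 0.393 (rank 8 of 14 clusters), and cluster 8 was then highest at 2.73% ± 0.517. The nuclei left out were 214 of the 1442 in cluster 7. In these, Malat1 took 9.28%, 11.2% and 7.10% of UMIs in QCM replicates 1 to 3 and 18.95%, 4.63% and 3.96% in SCM, against 1.12%, 1.91% and 1.23% and 2.05%, 1.95% and 1.66% in the rest of the cluster. The deep nuclei were above the rest in 6 of 6 libraries, with 2 to 83 such nuclei per library. In SCM replicate 1 this rests on 1 of its 2 deep nuclei, with 11764 Malat1 of 35004 UMIs. The other deep nucleus of that library did not exceed the rest of the cluster. Neat1 took 0.309% over the 214 nuclei and 0.0859% over the other 1228. Without the 6% of nuclei with most UMIs, Neat1 in cluster 7 was 0.0889% ± 0.0239 (rank 5 of 14), and goblet-like cluster 6 (0.185% ± 0.0585) was then above cluster 8 (0.176% ± 0.0474). Gm42418 was lower in the deep nuclei of the cluster in every library, for example 1.62% against 3.02% in QCM replicate 1.

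The fetal-type markers were also higher in these 214 nuclei. In QCM replicates 1 to 3 the 9 fetal-type markers summed to 1515, 1865 and 682 CPM in the deep nuclei and 116, 130 and 138 CPM in the rest of the cluster. In SCM they summed to 1292, 2589 and 931 CPM and to 677, 720 and 254 CPM. They were higher in the deep nuclei in each of the 6 libraries, and higher in SCM than in QCM in the rest of the cluster. The difference between media was not particular to cluster 7. In the other clusters these markers summed to 77.06, 31.96 and 55.26 CPM in QCM and 198.8, 216.6 and 113.3 CPM in SCM. Over the whole of cluster 7, deep nuclei included, every SCM sample lay above every QCM sample for 1077 of 10515 genes. No such count was made for the rest of the cluster alone or for the other clusters together. The values that follow are pooled over libraries, and SCM replicate 2 gave 59.7% of the UMIs of the deep nuclei but 10.5% of those of the rest, so the pooled values of the deep nuclei are largely those of 1 library. SCM replicate 1 and QCM replicate 1 held 2 and 6 deep nuclei. Clu, a marker of regenerating fetal-like epithelium, was at 1200 CPM against 95.5 in the rest of the cluster. Epithelial markers summed to 6534 against 3239 CPM and the 9 fibroblast markers to 0.786 against 3.44 CPM. Of the 7 epithelial markers, 5 were higher in the deep nuclei, with Krt8 at 2926 against 1061 CPM. Cdx1 (41.1 against 92.1 CPM) and Cdx2 (39.3 against 62.5 CPM) were lower. The 7 immune markers summed to 11.6 against 3.73 CPM, of which Csf1r was 8.65 against 0.287 CPM, while the defining immune marker Ptprc was at 0 in the deep nuclei. Of these 7, 3 were higher in the deep nuclei, among them Cd79a (0.983 against 0 CPM). The sums were lower in the deep nuclei for Paneth (275 against 1270 CPM), enteroendocrine (42.6 against 240), enterocyte (1849 against 2532), goblet (683 against 806) and stem markers (2159 against 2630), and higher for tuft markers (16.3 against 11.2). Members of these lists did not all follow the sum. Of the goblet markers 6 of 9 were higher in the deep nuclei, among them Fcgbp (287 against 188 CPM), while Tff3 (185 against 429 CPM) was lower. Of the others, 1 of 11 enterocyte markers (Apob), 2 of 8 Paneth markers, 3 of 9 stem markers and 3 of 9 tuft markers were higher. The median was 14002.5 UMIs and a mitochondrial share of 1.01% in the deep nuclei, and 2107 UMIs and 2.75% in the rest. This comparison of markers was chosen after the shares were seen, and the part of depth in it was not tested.

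In enterocyte-like cluster 8 the deep nuclei differed less. Malat1 was 3.57%, 2.85% and 2.41% in them in QCM and 3.43%, 5.54% and 3.47% in SCM, against 2.45%, 2.94% and 1.97% and 2.76%, 3.53% and 2.73% in the rest, so that QCM replicate 2 went the other way.

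A few nuclei were dominated by Malat1. It exceeded 20% of UMIs in 7 nuclei, 6 of them in cluster 7 and 1 in cluster 13. The largest was in SCM replicate 1, with 11764 Malat1 of 35004 UMIs (33.6%), and held 11.6% of all Malat1 UMIs of that library. It made the share of Malat1 in cluster 7 of SCM replicate 1, which had 17 nuclei, 9.20%. Without the 7 nuclei, the mean over samples in cluster 7 was 2.99% ± 0.828, second to cluster 8, and the shares per library were 2.22%, 2.46% and 1.70% in SCM and 1.40%, 2.02% and 1.28% in QCM.

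Cluster 7 also weighed differently on the libraries. It held 3.31% of nuclei, 3.82% of all UMIs and 9.78% of Neat1 UMIs in QCM replicate 3. In SCM replicate 2 it held 4.06% of nuclei, 16.4% of all UMIs and 37.1% of Neat1 UMIs, with 83 of its 204 nuclei among the deepest 6%. In SCM replicate 3 it held 4.84% of nuclei, 7.93% of all UMIs and 18.8% of Neat1 UMIs. In SCM replicate 1 it held 4.96% of Neat1 UMIs, less than in any QCM library (5.77% to 9.78%). For Malat1 the part from cluster 7 was 8.58%, 6.03% and 9.53% in QCM and 13.96%, 28.7% and 13.4% in SCM. Without the 7 nuclei over 20% Malat1 it was 8.58%, 3.98% and 6.52% in QCM and 2.66%, 28.7% and 13.4% in SCM, so that SCM replicate 1 was then the lowest library. Without cluster 7, Neat1 took 0.0549%, 0.0813% and 0.0710% in QCM and 0.0845%, 0.0919% and 0.0762% in SCM, so that SCM replicate 3 fell below QCM replicate 2 and the media overlapped.

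Within clusters, SCM was compared with QCM in the 13 clusters with at least 2 samples per medium. edgeR called 0 of 130109 pairs of gene and cluster (0% called), although 7490 pairs had an unadjusted p below 0.05. DESeq2, run without the low-count filter, called 76 of 318724 pairs. The estimate for Malat1 was above 0 in 13 of 13 clusters, from 0.03 in cluster 0 to 0.49 in cluster 7 on the log2 scale, with a smallest adjusted p of 0.908 by edgeR. Without the 7 nuclei over 20% Malat1 the estimate in cluster 7 was -0.07 and the count was 12 of 13. The estimate for Neat1 was above 0 in 12 of 13, from -0.01 in cluster 2 to 0.43 in cluster 8 (smallest adjusted p = 0.782), and that for Gm42418 in 11 of 13, from -0.16 in cluster 7 to 0.48 in cluster 12 (smallest adjusted p = 0.938). Clusters come from the same libraries and are not independent. The members were also chosen on shares of these same counts, so their p-values within clusters are no independent test of them. Without SCM replicate 2 only 9 clusters could be fitted, and the counts were 8, 6 and 4 of 9. Without QCM replicate 1 the count for Gm42418 was 7 of 13. For Malat1, Neat1 and Gm42418 the counts were 12, 12 and 12 of 13 without barcodes found in more than 1 library, and 11, 11 and 8 of 13 with replicates 2 and 3 alone.

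In enterocyte-like cluster 8, Malat1 took 2.82%, 2.91% and 2.17% of UMIs in QCM and 2.98%, 4.83% and 2.95% in SCM. This was the only one of the 27 pairs of a member and a cluster with 6 samples in which every SCM sample lay above every QCM sample, against 5.95% of all such pairs of gene and cluster. The SCM value of 2.98% rests on 11 nuclei. No pair had every SCM sample below every QCM sample, against 4.09% of all pairs.

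Within each library the shares followed the mitochondrial share of the nucleus, in opposite directions. From the lowest to the highest quartile of mitochondrial share, the mean share of Gm42418 per nucleus went from 2.12% to 3.86%, 2.61% to 6.55% and 2.67% to 11.7% in QCM replicates 1 to 3, and from 1.64% to 8.80%, 4.46% to 11.6% and 3.89% to 9.55% in SCM. It was higher at high mitochondrial share in all 6 libraries. Malat1 went from 1.89% to 0.509%, 2.09% to 1.39% and 1.66% to 0.407% in QCM and from 2.63% to 0.528%, 2.28% to 1.53% and 1.81% to 1.02% in SCM, lower in all 6. For Neat1 the ratio of the highest to the lowest quartile was between 0.365 and 0.984, nearest to 1 in SCM replicate 2. Over nuclei within a library, Spearman's coefficient with mitochondrial share was 0.624 to 0.818 for Gm42418, -0.626 to -0.255 for Malat1 and -0.441 to -0.0480 for Neat1. Nuclei of 1 library share its depth and preparation, and the 3 shares have a common denominator. The mitochondrial share comes from the deposited table, which has a nearly equal UMI count of its own (3.13% higher). These values are a description.

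With the UMIs of the nucleus the signs were the other way round. Spearman's coefficient was -0.714 to -0.239 for Gm42418, 0.301 to 0.766 for Malat1 and 0.141 to 0.588 for Neat1 over the 6 libraries. The steepest change was in SCM replicate 1, where Malat1 averaged 0.249% in the quartile of nuclei with fewest UMIs and 2.66% in that with most. In QCM replicate 1 Malat1 did not rise steadily, at 0.751%, 0.524%, 0.851% and 1.82% from the lowest to the highest quartile of UMIs.

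**Figure D3:**
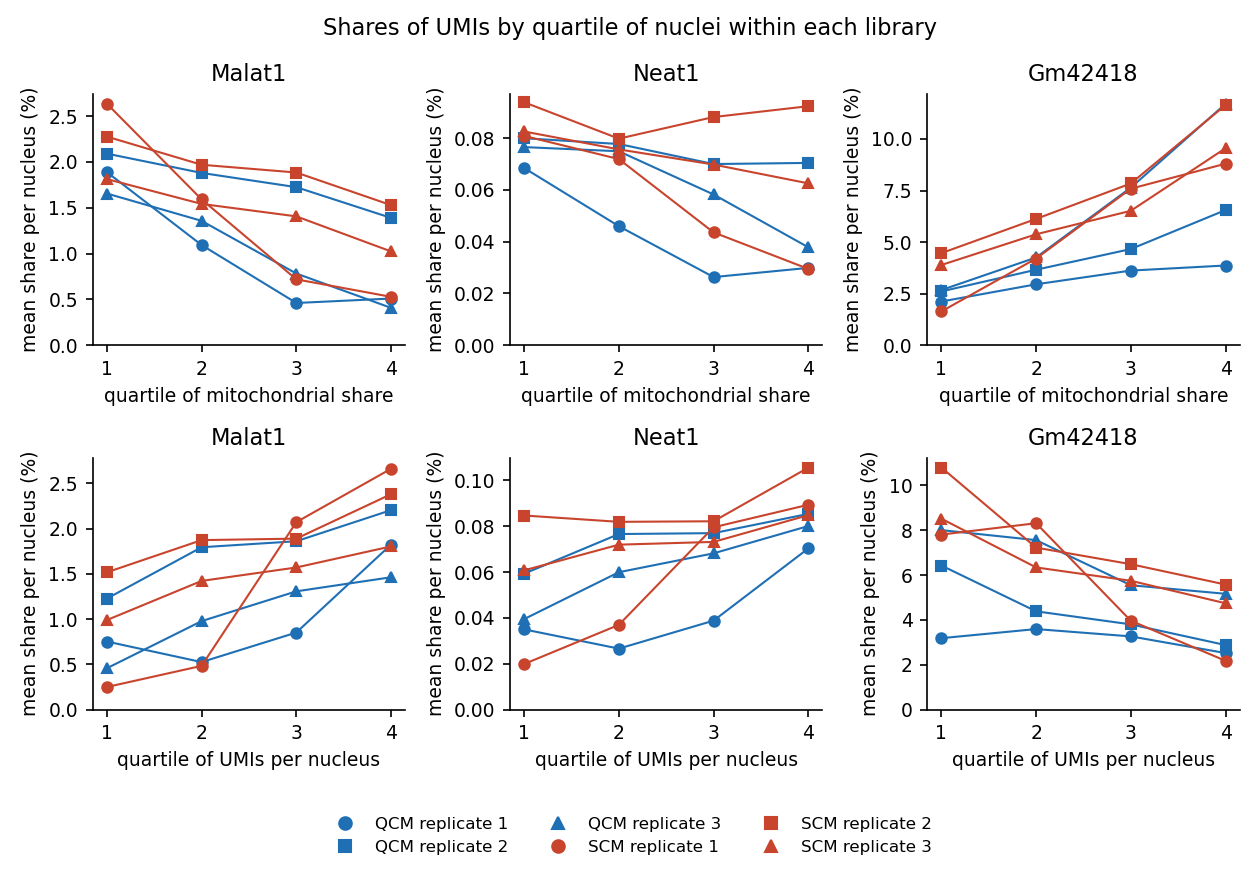
Mean share of UMIs per nucleus (y axis, percent) of each transcript by quartile of mitochondrial share (top) and of UMIs per nucleus (bottom), with a line per library. Gm42418 is higher in the top than in the bottom quartile of mitochondrial share in all 6 libraries (11.7% against 2.67% in QCM replicate 3), and Malat1 is lower in all 6.

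Malat1 was missing from 809 nuclei (2.12%). Cluster 1 held 340 of them and cluster 4 held 203, which were 4.19% and 8.90% of the nuclei of those clusters. There were 0, 82 and 578 such nuclei in QCM replicates 1 to 3 and 33, 6 and 110 in SCM, so QCM replicate 3 alone held most. In the 5 libraries that had any, they were shallow, with medians of 746 to 925.5 UMIs, and Gm42418 took 8.02% to 16.7% of their UMIs against 2.71% to 5.89% in nuclei with Malat1. Their median mitochondrial share was above that of the other nuclei in all 5 (for example 6.59% against 3.53% in QCM replicate 3). At a fixed 1000 UMIs per nucleus, cluster 1 had the lowest share of nuclei with Malat1, at 93.4% ± 7.16 over 6 samples, against 99.8% ± 0.291 in cluster 2. Enterocyte-like cluster 8 had the highest share with Neat1, at 74.2% ± 5.17, and cluster 1 the lowest at 34.1% ± 9.79.

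Across the 81 combinations of cluster and library with at least 10 nuclei, Malat1 and Neat1 varied together (Pearson's r = 0.751 on log2 values) and Malat1 and Gm42418 weakly apart (r = -0.316). The points share libraries, depth and clusters, and r carries no p. Of 8041 genes, Neat1 ranked 12 in likeness to Malat1. The 5 genes most like Malat1 were Spag9 (r = 0.860), a scaffold of JNK signaling, Tspan5, a tetraspanin, Myo1e, an unconventional myosin, Cxadr, a junction protein, and Raph1, a regulator of actin. Those most like Neat1 were Atp6v0a1 (r = 0.800), a subunit of the vacuolar proton pump, Lmo7, Wwc1, Atxn1 and Spag9 (r = 0.769). Those most like Gm42418 were Gm23935 (r = 0.722), Gm10076 (0.719), its own antisense gene model AY036118 (0.684), Sprr2a3 (0.643) and the ribosomal protein gene Rpl35 (0.642). Within libraries the rank correlation over nuclei was 0.286 to 0.598 between Malat1 and Neat1 and -0.704 to -0.357 between Malat1 and Gm42418.

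**Figure D4:**
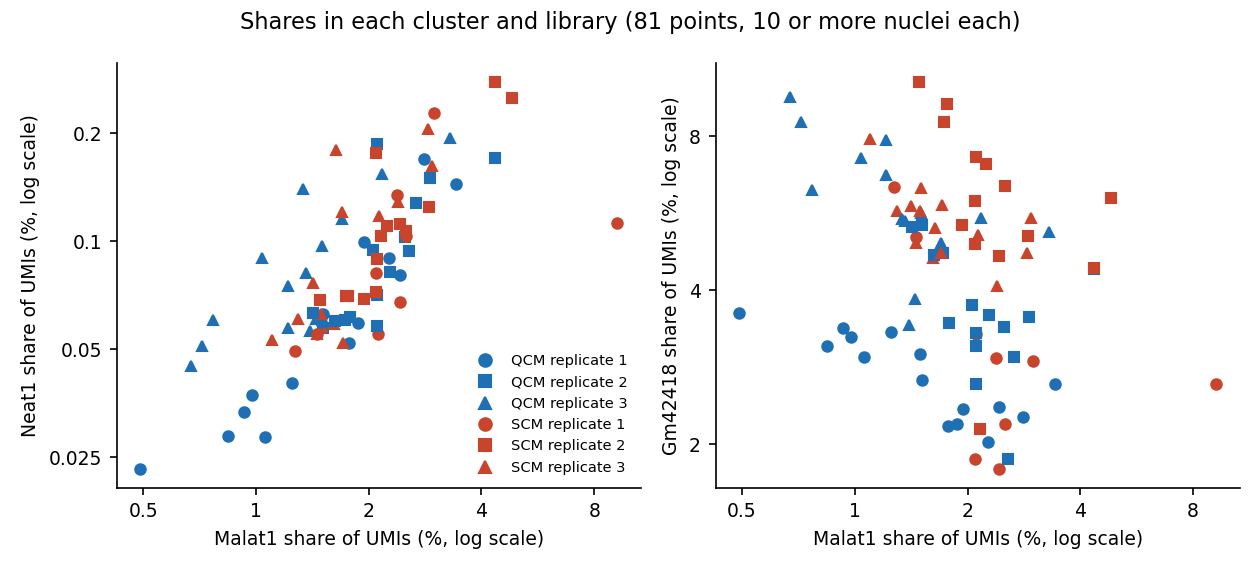
Share of UMIs of Malat1 (x axis, percent, log scale) against Neat1 (left) and Gm42418 (right; y axes, percent, log scale) in 81 combinations of cluster and library. Neat1 rises with Malat1 (r = 0.751), and the point farthest right is cluster 7 of SCM replicate 1 (9.20%).

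Transcripts beside Gm42418 did not all move with it. AY036118, on the opposite strand inside it, had 12.5, 6.24 and 7.52 UMIs per 100 of Gm42418 in QCM replicates 1 to 3 and 6.34, 7.55 and 5.54 in SCM, and the 2 correlated over nuclei in every library (Spearman's coefficient 0.459 to 0.742). Gm26917, 616 bases away, took 0.107% to 0.324% of UMIs, and its coefficient with Gm42418 was -0.141 to 0.186. CT010467.1, the rRNA gene model on the other strand, took 0.00861% to 0.0288%, with coefficients from -0.433 to -0.109. Lars2, a mitochondrial tRNA synthetase on another chromosome whose 3′ counts are often grouped with ribosomal RNA, took 0.0665% to 0.110%, with coefficients from 0.387 to 0.599. Gm42418 shared 30-base stretches with 2 other gene models, AY036118 and CT010467.1, both on the opposite strand, and with 0 on its own strand. How the authors' counting treated the strand of such reads is not stated.

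Lists of related genes give the setting. By edgeR over all nuclei no member of any list passed the test, as for all genes (0% called). The 15 paraspeckle proteins, the partners of Neat1, had a median log2 ratio of 0.01 and 9 estimates above 0, against a median of -0.01 and 48.6% above 0 over all genes. Taf15, an RNA-binding paraspeckle protein, was at 329 ± 77.0 CPM in QCM and 374 ± 6.40 in SCM (SD, n = 3). In clusters 8 and 7, with the highest means of Neat1, these proteins summed to 0.869 ± 0.0938 and 0.923 ± 0.0715 of the median cluster of the same sample. The 16 speckle and splicing factors, partners of Malat1, had a median of -0.03. Of these, Srrm2, a speckle scaffold, was at 559 ± 77.4 CPM in QCM and 629 ± 69.4 in SCM, and Rbm25 at 510 ± 130 and 632 ± 44.4. In cluster 7 they summed to 0.916 ± 0.0372 of the median cluster.

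Of 22 genes of RNA polymerase I and rRNA processing, 8 had an estimate above 0 and the median was -0.12. Npm1, a nucleolar chaperone, was at 794.5 ± 410 CPM in QCM and 497 ± 157 in SCM (log2 -0.89 ± 0.47, edgeR adjusted p = 0.927), and Ncl, nucleolin, at 591 ± 198 and 488 ± 59.3. The sum of this list was highest in cluster 1, at 1.17 ± 0.0498 of the median cluster, where Gm42418 was highest too, and lowest in cluster 8 at 0.729 ± 0.107. Among 11 tested rRNA-like and small noncoding RNAs, 3 estimates were above 0 and the median was -0.30, with AY036118 at 3415 ± 1134 CPM in QCM and 3073 ± 1354 in SCM and Gm26917 at 1968 ± 1136 and 2394 ± 532. The 18 other long noncoding RNAs tested had a median of 0.09. Of these Kcnq1ot1, an imprinted antisense RNA, was at 659 ± 28.3 CPM in QCM and 862 ± 370 in SCM, and Xist differed by replicate number as given above. The 9 tested genes beside Malat1 and Neat1 had a median of -0.23 and included Dpf2 (46.8 ± 2.71 and 44.7 ± 3.76 CPM) and Pcnx3 (27.8 ± 2.78 and 26.5 ± 0.0147 CPM).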

How the data were processed

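Nuclei of mouse organoids were sequenced with 10x 3′ chemistry. Per the methods and processing notes, the authors counted reads with Cell Ranger 2.1.1 on mm10 with Ensembl annotation, dropped nuclei whose mitochondrial fraction was too high or whose reads or features were too few, and clustered the rest with Leiden after Harmony. The deposited matrices hold UMI counts per gene and nucleus, and the deposited table gives the cluster, its own UMI count (3.13% above the matrix total) and the mitochondrial fraction. The deposited log matrix was not used. Doublets were not called, since the sources name no step for them. One alternative leaves out the 6% of nuclei with most UMIs. Here counts were added up over each sample, and over each cluster of a sample where it held at least 10 nuclei, and tested with edgeR 4.0.16 (quasi-likelihood, TMM, filterByExpr, Benjamini-Hochberg at 0.05) in R 4.3.3, with DESeq2 1.42.0 as an alternative. Exact permutation tests of the shares between media were planned and run but are not reported, since the members were chosen with these shares known. Rank correlations came from scipy 1.17.1. Scripts were tested on simulated data. The members, lists and markers were chosen with earlier results of these data known. A cluster was called X-like where at least 3 markers reached 5 CPM and exceeded all remaining nuclei by 2-fold. Its 10 leading genes by fold also had to hold no more markers of another type. Besides the members, the 2 tested genes of each list with the highest mean CPM are named (1 of them is not reported here), and the 5 genes most like each member by Pearson's r of log2(CPM + 1), over sums of at least 20000 UMIs and genes of at least 20 CPM. Depth ranged from 4071926 to 41035733 UMIs per sample. Intervals cover counting error only.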

Additional observations from a re-analysis of the deposited data

How the results depend on the processing

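The alternatives without barcodes found in more than 1 library, without the 7 nuclei over 20% Malat1, without cluster 7 and with replicates 2 and 3 alone were chosen after seeing the data. Over all nuclei, calls stayed at 0 except with DESeq2 (22 of 31319 genes). Within clusters, 5 of 130109 pairs were called with library size alone and 248 with the replicate block. Of 318724 pairs, 3135 were called with no low-count filter and 76 with DESeq2, which also ran without that filter. None was a pair of a member, and at such low shares of calls this says nothing about the members. Without 1 replicate each, 0 to 32 were called, 32 without QCM replicate 2. For these counts the cause was not tested.

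The log2 ratio over all nuclei without 1 replicate each was 0.17 to 0.45 for Malat1, 0.11 to 0.39 for Neat1 and -0.11 to 0.37 for Gm42418, and the adjusted p over all alternatives was at least 0.615, 0.591 and 0.933. The difference in share without 1 replicate each was 0.491 to 0.887 percentage points for Malat1, 0.0135 to 0.0318 for Neat1 and -0.0163 to 1.58 for Gm42418. The difference in the share of nuclei with a UMI was 0.344 to 5.63 points for Malat1 and 0.0356 to 8.27 for Neat1 without 1 replicate each, and reversed unthinned, at -0.692 and -2.65. The ratio of Malat1 in cluster 7 to cluster 1 moved to 1.66 without the 6% of nuclei with most UMIs, and was 2.74 against 4.59 as the mean of the share per nucleus, where cluster 7 ranked 3 of 15 (2.19%) behind clusters 8 and 14. Same-numbered samples correlated at 0.296, 0.635 and 0.0513 in their deviations, and since not every pair exceeded 0.1 the numbers were not taken to pair the samples. Each QCM sample correlated best with the SCM sample of its own number, a hint from the data and not the design, while SCM replicate 3 correlated best with QCM replicate 1 (0.169). Xist and the Y-linked genes also went by replicate number in both media, and the labels do not settle whether samples are paired. With the replicate block the log2 ratios were 0.32, 0.27 and 0.02. The mean difference in share is the same with or without this block by arithmetic, so it is no check. The SCM sample lay above the QCM sample of its number in 3 of 3 pairs for Malat1 and for Neat1, and in 1 of 3 for Gm42418.

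SCM replicate 1 had 430 nuclei and was below 10 nuclei in clusters 9 to 14, and Neat1 was seen in only 63.7% of nuclei, so single nuclei without it say little about its level.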
